A study of Mus musculus with 6 samples.

Results

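Apod and 7 genes of the lipid efflux pathway (Apoe, Abca1, Abcg1, Nr1h2, Nr1h3, Mylip and Lrp1) were followed through an expression array experiment in 3T3 cells, an immortalized mouse fibroblast line. Every non-control probe whose gene name in the scanner output was one of these 8 genes, of 35527 names in all, was taken, which gave 12 probes among 55681. Abca1, Abcg1, Nr1h2 and Apoe had 1 probe each, and the other 4 genes had 2 each. The members were chosen by measured values of this same comparison, in particular the low Apod signal and the opposite differences of the Lrp1 probes. Their values are therefore a description, and no p value is printed for them. The limits used below combine a fold with a limma p, or use an adjusted p alone. Where a member is said to be past such a limit this is a description and no test, since the same values chose it.

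Cells were treated for 48 h with 50 nM of GapmeR Ntep or of GapmeR control, with 3 arrays per label from 3 independent experiments. A GapmeR is an antisense oligonucleotide whose DNA core recruits RNase H to the bound RNA, and Ntep is a long non-coding RNA that the study named for its effect on proliferation. The model has limits: it is 1 cell line, transiently treated with 1 GapmeR per label. The probe for Ntep (A630089N07Rik) read 472, 91.5 and 226 on the GapmeR Ntep arrays of experiments 1, 2 and 3 and 271, 272 and 361 on the GapmeR control arrays. It went against its label in experiment 1, and the groups overlapped (log2 difference −0.48, SE 0.58, limma adjusted p = 0.632). By quantitative PCR, the study reported efficient silencing of Ntep by this GapmeR in the same cell line. It does not state whether that PCR used the RNA of these arrays. On these arrays this probe does not show silencing of Ntep, and whether Ntep was silenced in these samples was not tested otherwise. All directions below are those of the array labels.

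Cells export surplus cholesterol through the transporters Abca1, onto lipid-poor apolipoproteins such as Apoe, and Abcg1, onto mature HDL. The liver X receptors, encoded by Nr1h2 and Nr1h3, sense oxysterols and switch on the genes of both transporters, of Apoe and of Mylip, a ubiquitin ligase that marks lipoprotein receptors for degradation. Lrp1 is a large endocytic receptor that takes up Apoe-bearing particles. Apod, despite its name, is a lipocalin that binds arachidonic acid and other small lipids, and in fibroblasts it is known to accumulate when cells stop dividing.

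Signals are background-subtracted intensities after quantile normalization, with values under 20 set to 20, and differences are log2 of the GapmeR Ntep signal minus log2 of the GapmeR control signal with n = 3 against 3 arrays. Between 43.7% and 53.3% of probes were well above background on an array, and no probe was saturated. Of the 12 member probes, 7 were well above background on all 6 arrays and 11 were tested, which required a mean signal of 50 or more under at least 1 of the labels. The Abca1 probe reached that mean only in the GapmeR control group. RNA came from whole cultures, so fewer cells with a transcript and less of it per cell cannot be told apart.

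A fold of at least 2 with an unadjusted limma p under 0.01 was met by 5 of the 11 tested member probes, 2 with more and 3 with less signal under GapmeR Ntep. Over all tested probes the same limits were met by 8.13%. With an adjusted p under 0.05 the count was 3 probes, beside 5.3% of all probes. Groups did not overlap for 6 member probes, beside 32.1% of all probes. Leaving out GapmeR Ntep replicate 3, control replicate 2 or control replicate 3 took the first count to 3, beside 5.97%, 5.15% and 5.53% of all probes. The count by limma with the adjusted p came to 0 in these fits, beside 0%, 0% and 0.0161%. At an unadjusted p under 0.05 there were 5, 6 and 7 member probes. The share of all probes at that limit is not given here, so this tally has no background. Nothing is read from these counts, since the choice of members used this contrast. The median difference of the member probes was −0.443, and that of all tested probes was 0.0621.

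**Figure D1:**
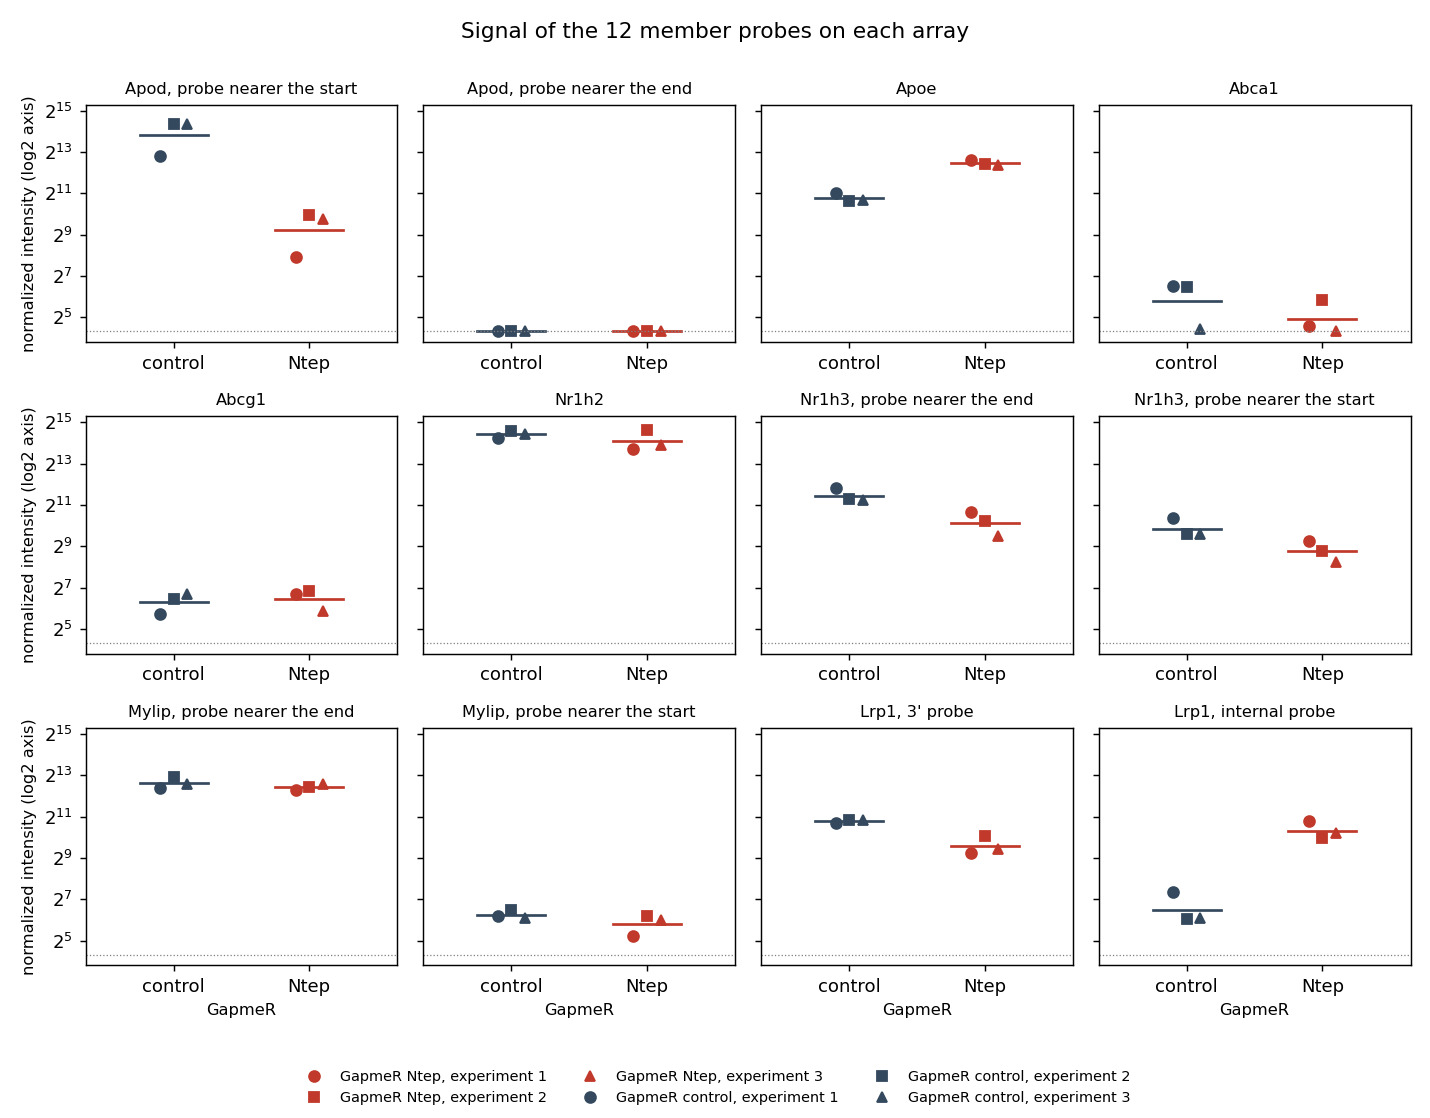
Normalized intensity (log2 axis) of the 12 member probes on each array, with a panel per probe, colour for the GapmeR, marker shape for the experiment and a bar at the mean of the log2 values. The dotted line is the floor of 20. Apod on its first probe lies at 7098 to 21091 on control arrays and at 246 to 1002 on GapmeR Ntep arrays, Apoe lies higher on all GapmeR Ntep arrays, and the Lrp1 probes move in opposite directions.

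Apod was read by a pair of probes on the minus strand of chromosome 16 (mm9), whose starts lie 907 bases apart. The probe nearer the start of the transcript is A_55_P2093286 at chr16:31297206-31297265, and the other is A_55_P2055158 at chr16:31296299-31296358. The innermost 30 bases of the second probe and a 30-base stretch of the first are printed because these sites gave such different readings. Capitals mark AATAAA, the usual polyadenylation signal, which precedes the end of many mRNAs.
Apod A_55_P2093286: tgctagcccaatAATAAAcattttgctgat
Apod A_55_P2055158: tcacttagttcctgttgtatagtctgttgt

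On the first Apod probe the signal was 246, 1002 and 853 on the GapmeR Ntep arrays of experiments 1, 2 and 3. On the GapmeR control arrays it was 7098, 21091 and 20996. Experiment 1 was the lowest of its group under both labels, and the groups did not overlap. The log2 difference was −4.62 (SE 0.69, 95% CI −6.30 to −2.95), which is 24.6-fold lower. Within the experiments the differences were −4.85, −4.40 and −4.62, so they varied less than the arrays of a group did, whose SD was 1.11 for GapmeR Ntep and 0.91 for GapmeR control on the log2 scale. Of all tested probes, 0.0323% had a lower difference than this one.

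The second Apod probe was at the floor of 20 on all 6 arrays and well above background on none. It holds no AATAAA, and it lies downstream of the first probe's copy. It was not tested and gives no difference.

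Apoe, the main apolipoprotein made outside the liver and gut, was read by 1 probe (A_51_P171999, chr7:20281732-20281791, minus strand, mm9), printed as 10 spots on each array. The coefficient of variation among these spots was 2.16% to 3.64%. The signal was 6181, 5458 and 5226 on the GapmeR Ntep arrays, and 2080, 1575 and 1653 on the GapmeR control arrays. Every GapmeR Ntep array was above every control array. The mean was 5622 ± 498 against 1769 ± 272 (SD, n = 3 each), a log2 difference of 1.67 (SE 0.19, 95% CI 1.22 to 2.13) or 3.19-fold higher. The differences within experiments 1, 2 and 3 were 1.57, 1.79 and 1.66.

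Both transporter probes were dim. Abca1, which loads cholesterol and phospholipid onto lipid-poor apolipoproteins, had a probe (A_52_P665675, chr4:53043944-53044003) well above background on 1 GapmeR Ntep and 2 GapmeR control arrays. Its signal was 23.8, 56.8 and 20 against 91.7, 88.6 and 21.9 on the control arrays, with overlapping groups and a log2 difference of −0.91 (95% CI −2.58 to 0.76). Over other settings it ran from −1.58 without control replicate 3 to −0.29 after a normexp correction, with −0.34 without experiment 1. Abcg1, which passes cholesterol on to mature HDL, was read at chr17:31252580-31252639 (A_51_P222467) and gave 103, 115 and 57.8 against 53.0, 88.2 and 102. The Abcg1 difference was 0.17 (95% CI −0.73 to 1.08), it had opposite signs in experiments 1 and 3 (0.97 and −0.82), and it turned negative under 4 of 19 other settings that tested it, −0.24 without experiment 1 among them. At these levels a doubling of Abcg1 or a fall of Abca1 beyond 4-fold was within the intervals.

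Among the receptors, Nr1h2 (liver X receptor beta, A_55_P1978481, chr7:51805013-51805072) gave signals of 13262, 25272 and 15379 on the GapmeR Ntep arrays and 19428, 24278 and 22371 on the control arrays. The groups overlapped, with a log2 difference of −0.34 (95% CI −1.03 to 0.34). Nr1h3 (liver X receptor alpha) was read by a pair of probes 95 bases apart on chromosome 2. Its brighter probe (A_66_P120249, chr2:91024250-91024309) read 1622, 1189 and 732 against 3658, 2487 and 2394, and its other probe (A_55_P2128597) read 612, 439 and 306 against 1308, 777 and 784.

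On both Nr1h3 probes all GapmeR Ntep arrays were below all control arrays. The log2 differences were −1.32 (SE 0.35, 95% CI −2.16 to −0.47) and −1.09 (SE 0.34, 95% CI −1.92 to −0.26). The first passed a fold of 2 with p under 0.01 and the second did not. Under 20 other settings they passed 11 and 3 times. The first lost that call without experiment 1 (−1.38) and when any array other than GapmeR Ntep replicate 1 was left out, with differences of −1.58 to −1.01 over the 6 arrays left out in turn. With the experiment as a block both passed the adjusted limit, as did the Lrp1 3′ probe, which made 6 member probes in place of 3, beside 13.8% of all probes in that fit.

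Mylip (also called Idol) was read by a pair of probes whose starts lie 3171 bases apart on chromosome 13. The brighter probe (A_51_P324303, chr13:45506979-45507038) read 5052, 5440 and 6044 on the GapmeR Ntep arrays and 5416, 7737 and 6171 on the control arrays. The dimmer probe (A_52_P248343, chr13:45503808-45503867) read 37.3 to 74.1 against 68.4 to 88.1 and was well above background on 1 GapmeR Ntep array and on 3 control arrays. Groups overlapped on both, with log2 differences of −0.21 (95% CI −0.70 to 0.27) and −0.44 (95% CI −1.17 to 0.28).

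**Figure D2:**
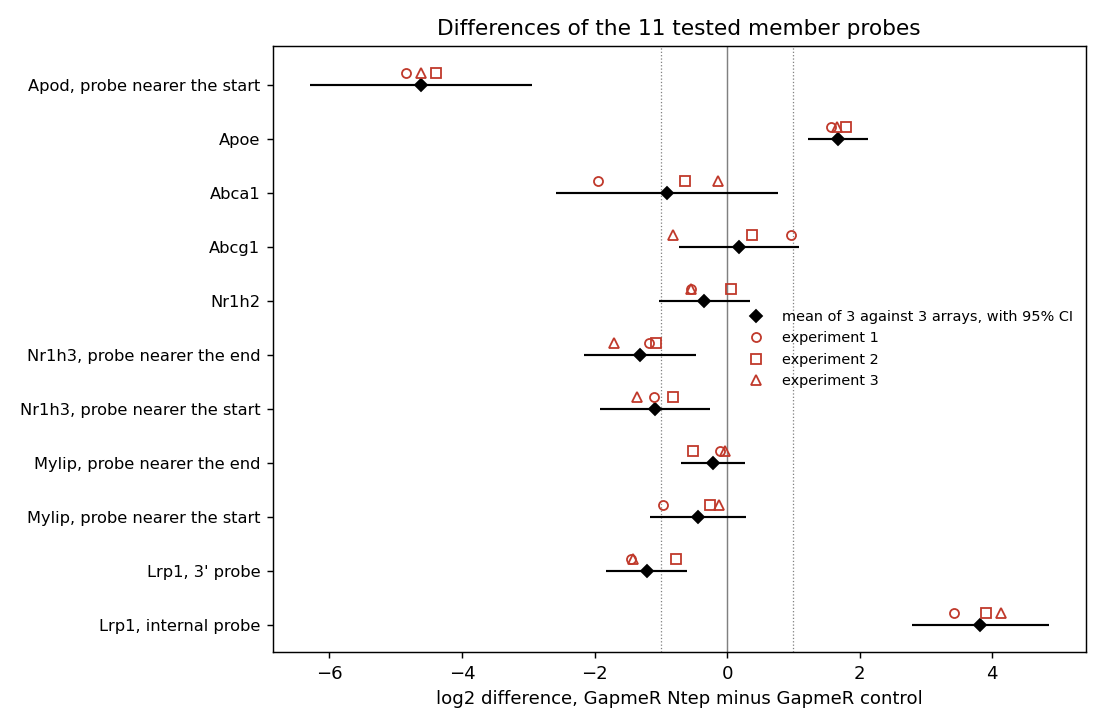
Log2 difference (GapmeR Ntep minus GapmeR control) of the 11 tested member probes. Diamonds are the fitted means with bars for the 95% CI, open symbols are the differences within experiments 1 to 3, and dotted lines mark a fold of 2. Apod (−4.62) and the internal Lrp1 probe (3.82) lie at opposite ends, Apoe lies at 1.67, and the intervals of Abca1, Abcg1, Nr1h2 and both Mylip probes include 0.

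Lrp1 is the member whose probes gave opposite readings. It lies on the minus strand of chromosome 10, where a probe of the full-length mRNA near its 3′ end (A_51_P193794, chr10:126975573-126975632, mm9) and an internal probe (A_55_P1985633, chr10:127026228-127026287) are 50.6 kb apart. The internal probe was designed on the sequence of a cDNA clone from bone marrow macrophages. A further probe, listed only under an Ensembl transcript (A_55_P1985628), lies 61.5 kb upstream of the 3′ probe. Over the full 60 bases, AATAAA stands in the internal probe and in neither of the others. A 30-base stretch of each is printed, with AATAAA in capitals.
Lrp1 3′ probe: ggaggtggagtcctctgctgaccctgtctg
Lrp1 internal probe: ttggtgtgtcaggcccttcacAATAAAgct
Upstream Ensembl probe: ttggtagcaaacaggaacacgaggccgtgt

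AATAAA begins at base 52 of the 60 bases of the internal probe. It occurs in 4 of the 12 member probes (Apod, Nr1h2, Nr1h3 and Lrp1) and in 10.1% of all probes on the array. A match is a description of the letters, and the exons and UTRs under these probes were not mapped here.

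The 3′ probe of Lrp1 read 611, 1072 and 688 on the GapmeR Ntep arrays and 1663, 1831 and 1849 on the control arrays. Its log2 difference was −1.21 (SE 0.25, 95% CI −1.82 to −0.60), or 2.32-fold lower. The internal probe read 1739, 988 and 1184 against 161, 65.9 and 67.6. It was well above background on all GapmeR Ntep arrays and on 1 of the 3 control arrays. Its log2 difference was 3.82 (SE 0.42, 95% CI 2.79 to 4.85), or 2.56 after a normexp background correction, so its size depends on how the control background is handled. It was 3.43, 3.91 and 4.13 within the experiments. On neither probe did the groups overlap. The upstream Ensembl probe was well above background on no array, with 24.2 on 1 control array and the floor of 20 on the other 5.

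Within an array, the log2 signal of the internal probe minus that of the 3′ probe was 1.51, −0.12 and 0.78 on the GapmeR Ntep arrays. On the control arrays it was −3.36, −4.80 and −4.77. This contrast shows unequal change of the probes and does not give the amount of either RNA. The 3′ probe lost the call at a fold of 2 and p under 0.01 without experiment 1 (−1.09) and without GapmeR Ntep replicate 3 (−1.13), control replicate 2 (−1.20) or control replicate 3 (−1.19). The internal probe was past both limits under the 20 other settings, with differences of 2.56 to 4.24.

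**Figure D3:**
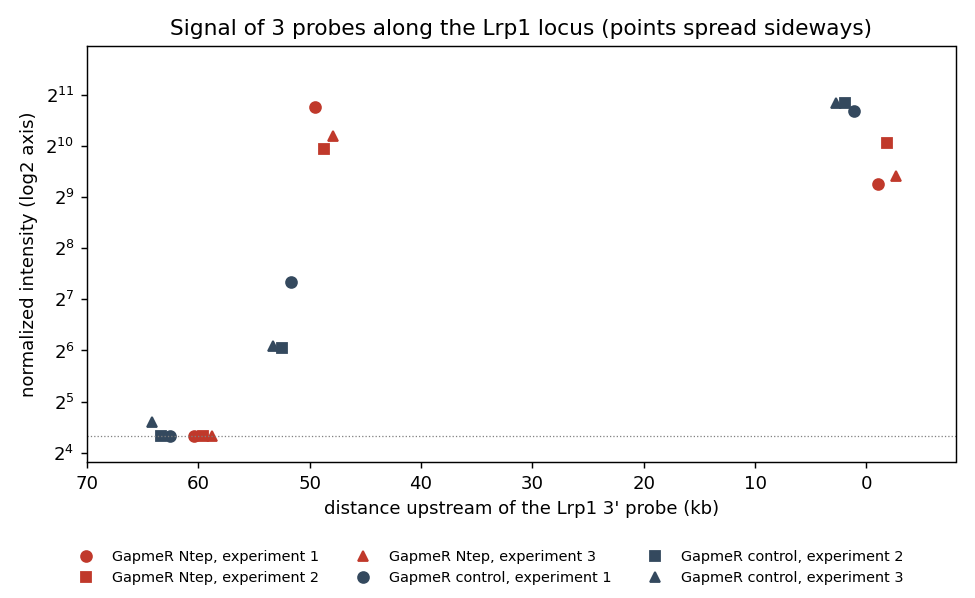
Normalized intensity (log2 axis) of 3 probes along the Lrp1 locus against their distance upstream of the 3′ probe (kb), with points spread sideways so that the arrays can be told apart. Colour stands for the GapmeR, marker shape for the experiment and the dotted line for the floor of 20. GapmeR Ntep arrays are lower at the 3′ probe, higher at the probe 50.6 kb upstream, and at the floor 61.5 kb upstream.

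Some markers of other cell types differed between the same arrays. Of 9 listed macrophage marker names 8 matched a probe, Adgre1 being another name of Emr1, and 4 genes were tested. By limma, Cd14 (log2 difference 1.11, adjusted p = 0.0627) and Cd68 (1.21, adjusted p = 0.0287, on the brighter of its probes) passed a fold of 2 with p under 0.01. The methods' t-test called 1 gene of this list. Over all tested genes 3.69% were higher at these limits by limma. Itgam, the brightest of the macrophage markers, read 45777, 19443 and 30885 against 14655, 10652 and 12952 and did not pass (1.26, adjusted p = 0.0881). Lyz2 (−0.18), the other Cd68 probe (0.68) and the other tested Itgam probe (−0.03) did not pass either. The summed signal of the list was 40570 to 70630 on the GapmeR Ntep arrays and 20000 to 26230 on the control arrays. The defining markers Ptprc, Emr1, Fcgr1 and Mrc1 were well above background on no array. Of 6 adipocyte markers 3 were tested. Fabp4 was higher by limma (2.12, adjusted p = 0.0765), and the methods' t-test called 0. Fabp4 read 6498, 1495 and 2262 against 549, 672 and 722, so experiment 1 had the largest difference. Cfd (−0.17) and Plin1 (−0.83) did not pass. Plin1 was at the floor of 20 on every array but control replicate 3 (113). The summed signal of the adipocyte list, 1668 to 6711 against 698 to 966.5, was mostly Fabp4. Adipoq was well above background on 1 array and Lep on none. Of 8 fibroblast markers 7 were well above background on all 6 arrays. None of those 7 was called by limma, 2 had an unadjusted p under 0.05, both lower, and the methods' t-test called 0. The summed fibroblast signal was 454500 to 596600 on the GapmeR Ntep arrays and 670500 to 741400 on the control arrays. Most of this gap came from Col1a1, Col1a2, Col3a1 and Fn1 (−0.43, −0.71, −0.81 and −0.47). The other tested fibroblast markers, Pdgfrb, Vim and Thy1, differed by −0.76, −0.12 and 0.05. Of 6 endothelial and epithelial markers 5 were tested, 0 were called by limma or by the methods' t-test, and 1 had an unadjusted p under 0.05. The part of these markers in the Apoe and Lrp1 readings was not tested.

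The surrounding pathway was described with 5 lists of 65 other genes, of which 51 were tested. At a fold of 2 and p under 0.01 with any probe, 2 were higher (Stard4 and Apom), 2 were lower (Ncor1 and Npc2) and 47 were neither. Apom was tested only because of its GapmeR Ntep mean (66.7, against 26.5) and was well above background on no control array, so its call carries no weight. With the experiment as a block 6 were past these limits, the same 4 and, lower, Lpcat3 and Ptgds. Over all 22094 tested genes 3.69% were higher and 5.87% lower. With an adjusted p under 0.05 there were 2 such genes (Ncor1 and Stard4), beside 6.43% of all genes.

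Of the 16 genes listed as other efflux transporters and apolipoproteins 11 were tested and 0 were called by limma. 1 of them had an unadjusted p under 0.05, and the methods' t-test called 0. The median difference of this list was −0.467, taken here and in the lists below over the brightest tested probe of each gene. Over all tested probes, with every probe of a gene counted, it was 0.0621. Its brightest genes were Clu, which encodes the secreted chaperone apolipoprotein J (−0.58, adjusted p = 0.308), and Lpl, the lipase that releases fatty acids from lipoproteins (−0.57, adjusted p = 0.392).

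Among 13 partners and targets of the liver X receptors, all tested, Ncor1 was lower on 1 of its 2 probes. Ncor1 is a corepressor that holds unliganded nuclear receptors silent. The called probe read 345, 566 and 460 against 1011, 961 and 928 (−1.11, adjusted p = 0.0482), and the brighter probe differed by −0.50 (adjusted p = 0.345). An unadjusted p under 0.05 was reached by 3 genes of this list, all lower, Ncor1 and Lpcat3 among them, the latter named after its values were seen. Lpcat3, a phospholipid-remodelling enzyme and known receptor target, read 1210, 3986 and 2390 against 5578, 7553 and 6811 (−1.55, adjusted p = 0.0975, and 0.0468 with the experiment as a block, 0.00778 to 0.277 over all settings). Scd2, a bright fatty acid desaturase gene that was not called, differed by −0.16 (adjusted p = 0.708). The list's median was −0.157.

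Of 17 genes of the lipoprotein receptor family and its adaptors 14 were tested and 0 called by limma. An unadjusted p under 0.05 was reached by 5, all higher, and the methods' t-test called 0. Lrp6 and Lrp8 reached it only on the dimmer of their probes (0.91 and 0.78), while the brighter probes differed by 0.04 and 0.05. The share of all genes at that limit is not given here, so the tally has no background. Snx17, a sorting adaptor that recycles Lrp1, differed by 0.49 (adjusted p = 0.137). The list's median was 0.154.

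Of 11 genes of cholesterol trafficking and esterification 9 were tested. Stard4, a soluble sterol carrier, was higher on 1 probe, which read 8362, 4434 and 6869 against 1972, 1985 and 1826 (1.72, adjusted p = 0.0312). Its brighter probe differed by 0.07 (adjusted p = 0.949). Npc2, which hands cholesterol out of the lysosome, read 13377, 18655 and 21872 against 31160, 42335 and 38018 (−1.07, adjusted p = 0.0633). The brightest genes not called, the cholesteryl ester hydrolase Nceh1 and the endosomal sterol carrier Stard3, differed by 0.54 and 0.37 (adjusted p = 0.143 and 0.274).

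Among 8 genes of other lipocalins and the Apod receptor 4 were tested. Apom, a lipocalin that carries sphingosine-1-phosphate on HDL, read 87.7, 63.6 and 48.7 against 38.2, 20 and 21.2 (adjusted p = 0.0765). It was well above background on 2 GapmeR Ntep arrays and on no control array, and it was tested only because of its GapmeR Ntep mean (66.7, against 26.5). Its mean over the GapmeR Ntep arrays was 1.29-fold above the lowest signals above background on the control arrays. Since not all GapmeR Ntep arrays were well above background, this is no strict lower bound. Bsg, whose product basigin has been described as a receptor for Apod, differed by 0.05 (adjusted p = 0.960). Ptgds, the prostaglandin D synthase of the lipocalin family, read 5036, 12336 and 8197 against 13143, 27370 and 28968 (−1.45, adjusted p = 0.116, and 0.0337 with the experiment as a block, 0.00677 to 0.319 over all settings). Of the 4 calls in these lists, Stard4 was called under all 20 other settings, Ncor1 under 16, Npc2 under 12 and Apom under 8 of the 19 that tested it.

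**Figure D4:**
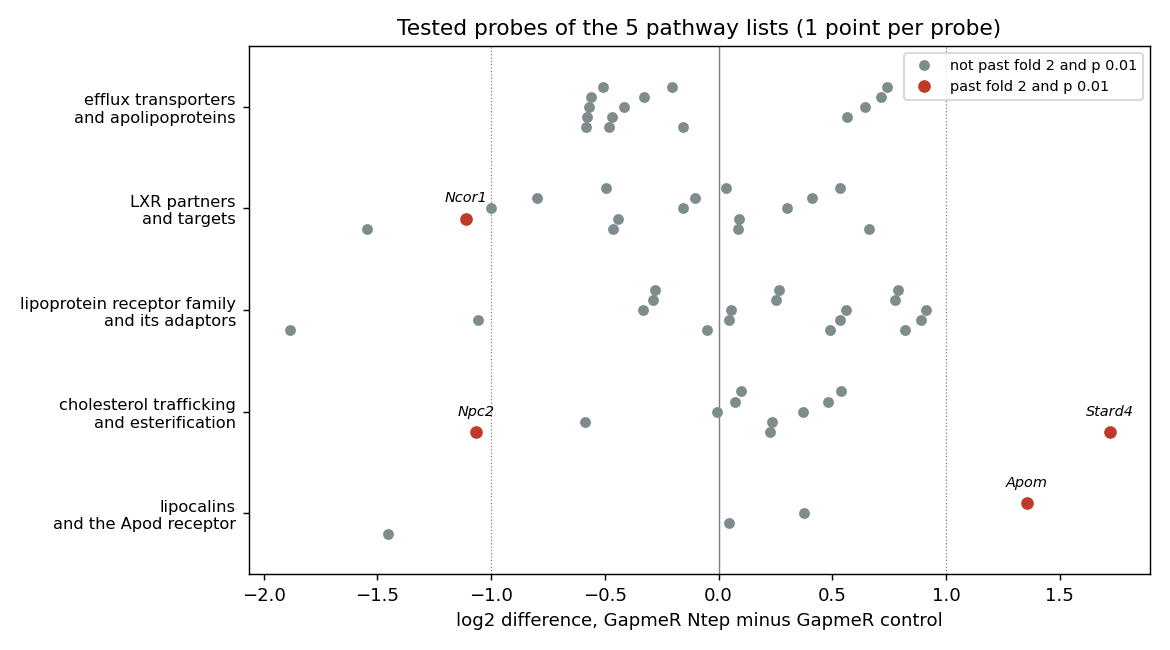
Log2 difference (GapmeR Ntep minus GapmeR control) of every tested probe in the 5 pathway lists, with 1 point per probe (Apom, at 1.36, is not above background on control arrays) and dotted lines at a fold of 2. Red points passed a fold of 2 with an unadjusted p under 0.01, which were 1 probe each of Stard4, Apom, Ncor1 and Npc2.

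The 6 log2 values of the first Apod probe were correlated with those of the brightest probe of 14578 other genes. The highest Pearson r were those of Ly6c1 (0.999), a cell surface protein with a close paralog that may share its probe, Ccdc122 (0.998), A630033E08Rik (0.998), Ubr3 (0.998), a ubiquitin ligase, and Brd8 (0.997), a bromodomain subunit of a histone acetyltransferase complex. These coefficients describe 6 arrays that share the split by GapmeR and the low experiment 1 and carry no test. All of them were lower on the GapmeR Ntep arrays without overlap, by −1.86 (Ly6c1), −2.58 (Ccdc122), −0.82 (A630033E08Rik), −1.04 (Ubr3) and −1.15 (Brd8).

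Ly6c1 read 15672, 27770 and 23926 on the GapmeR Ntep arrays and 59161, 95725 and 88315 on the control arrays. In each of these genes, as in Apod, the array of experiment 1 was the lowest under both labels. Among the other members, r with Apod was −0.98 for Apoe, 0.958 for the 3′ probe of Lrp1 and between −0.103 and 0.703 for the brightest probes of the rest. Only the brightest tested probe of each member was used. The internal Lrp1 probe, which was higher under GapmeR Ntep (3.82), was thus not included.

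**Figure D5:**
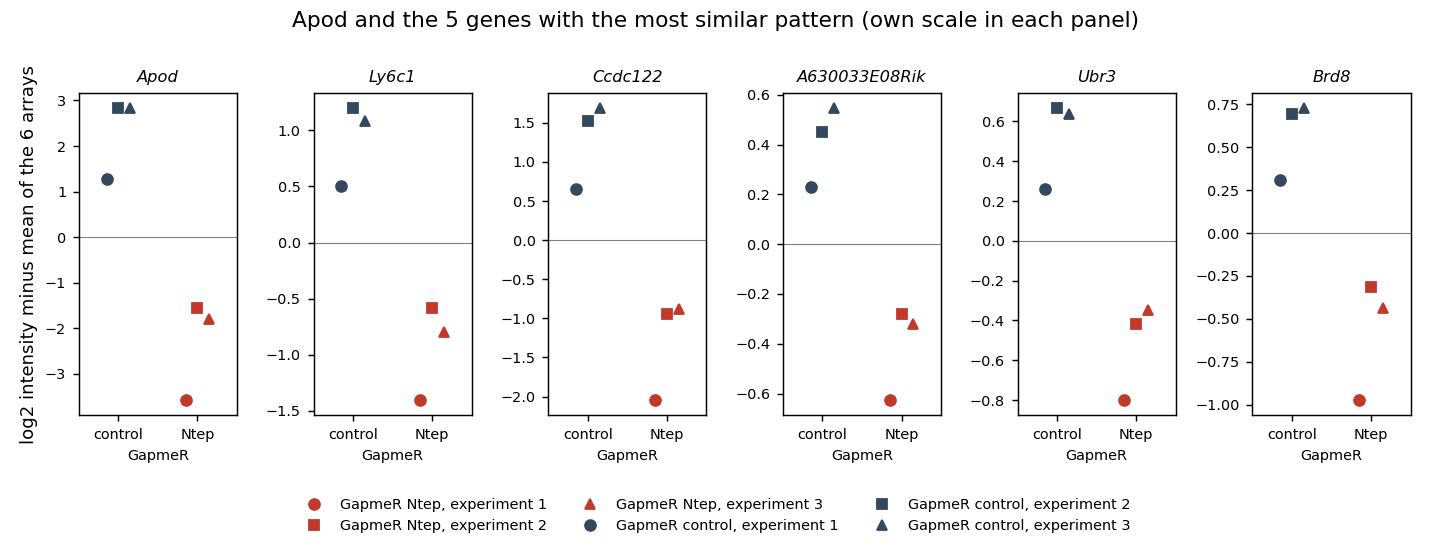
Log2 intensity minus the mean of the 6 arrays for Apod and the 5 genes with the highest correlation, each panel on its own scale. Colour stands for the GapmeR and marker shape for the experiment. In every panel the control arrays lie above the GapmeR Ntep arrays and experiment 1 is the lowest of each group.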

How the data were processed

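RNA from 3T3 cells was hybridised to Agilent mouse arrays in 1 colour. The authors extracted intensities with Agilent Feature Extraction 10.7.3.1, and the deposited intensity columns hold background-subtracted signal not normalized across the arrays. A deposited table of normalized intensity served as an alternative. It was within 5% of the values computed here for 99.9% of entries. Coordinates are mm9, as in the scanner output.

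Spots of a probe were averaged and arrays quantile normalized. A floor of 20 was applied before taking log2. The labels were then compared without pairing for the 30990 probes whose mean signal reached 50 under at least 1 label, using R 4.3.3 with the packages limma 3.58.1 and data.table (version 1.17.8). Benjamini-Hochberg adjustment ran over all of them. The script was tested on simulated data. p-values measure the spread between the cultures of 3 experiments, and 3 arrays a group limit the precision.

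Members and lists were chosen with earlier results of these data known. Named genes were all members, at most 4 called genes and the 2 brightest uncalled genes of each list, the 5 genes most correlated with Apod, and the Ntep probe, although some genes that this rule names are not reported here. Marker genes came from fixed lists, and those named from them were picked after their values were seen.

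Array numbers pair the experiments in the study's supplementary documentation. Deviations of arrays with the same number from their group means correlated at 0.466, 0.3 and 0.254, against −0.327 to 0.126 for other pairs. The main fit was unpaired, as the study's. Of 20 alternatives 17 were listed beforehand, and 3 were chosen after seeing the data (prior spread from all probes, spots normalized before averaging, experiment 1 left out).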

Additional observations from a re-analysis of the deposited data

How the results depend on the processing

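Under the 20 other settings the differences of Apod (−5.13 to −3.96), Apoe (1.60 to 1.78) and the internal Lrp1 probe (2.56 to 4.24) were past a fold of 2 with p under 0.01 each time and past the adjusted limit under 13, 17 and 15 settings, which is a description, since these values chose the members. Member probes past a fold of 2 and p under 0.01 (5) came to 3 without experiment 1 (9.19% of all probes in that fit), where the brighter Nr1h3 probe and the 3′ Lrp1 probe dropped out. They came to 3 to 6 when an array was left out. They were 3 without GapmeR Ntep replicate 3, control replicate 2 or control replicate 3 (5.97%, 5.15% and 5.53% of all probes). Member probes past an adjusted p of 0.05 (3) came to 1 without an intensity cutoff (1.01% of all probes in that fit), 1 by the methods' t-test (0.92%), 6 with array weights (33.1%), 6 with the replicate block (13.8%), and 0 to 4 when an array was left out. The count was 0 by limma without GapmeR Ntep replicate 3, control replicate 2 or control replicate 3, where 0, 0 and 5 probes of the whole array passed. In those fits 5, 6 and 7 member probes had an unadjusted p under 0.05, a tally given without the share of all probes. The replicate block also added the second Nr1h3 probe, Lpcat3 and Ptgds to the calls at a fold of 2. Pathway genes called (4) came to 2 under 75th percentile scaling, 2 by the methods' t-test, and 2 to 6 when an array was left out, with 2 without control replicate 2 and 6 without control replicate 1. The 75th percentile scaling moved the median of all probes from 0.0621 to 0.222. Abcg1 was −0.47 with array weights. The causes of these shifts were not tested. Abca1, the second Apod probe, the dimmer Mylip probe and the control arrays of the internal Lrp1 probe are limited by signal at or near background.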
